A study of Mus musculus with 3 samples.

Results

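Neuregulins and ErbB receptors were taken as 8 genes of the 31040 in the count table: the neuregulins Nrg1, Nrg2, Nrg3 and Nrg4 and the receptors Egfr, Erbb2, Erbb3 and Erbb4, found by symbol, with all 8 present. They were followed in nuclei of lumbar spinal cord from 12 mice aged 90 days, profiled one nucleus at a time. SOD1G93A mice, a transgenic model of amyotrophic lateral sclerosis (ALS) that carries mutant human SOD1, were compared with their WT littermates, with 3 females and 3 males of each genotype. Nuclei of 1 mouse from each combination of sex and genotype were hashtagged and run together, giving the pools A, B and C. Values are unique molecular identifiers (UMIs) summed over the nuclei of a labelled cell type or neuron sub-type in a mouse and given per 1000000 UMIs of those nuclei (CPM). Because all mice of a group are 1 transgenic line at 1 age, the comparison of genotypes holds for that stage only.

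Neuregulins are growth factors that share an EGF-like domain, through which they bind ErbB4 and, for some of them, ErbB3 on neighbouring cells. ErbB2 has no known ligand of its own and signals as the partner of the other receptors, ErbB3 has little kinase activity and depends on such a partner, and EGFR binds EGF, TGF-alpha and related ligands rather than neuregulins. Neuregulin 1 on axons instructs Schwann cells to myelinate, it is found at the cholinergic synapses on motor neurons, and inherited changes in human ERBB4 have been linked to a familial form of ALS.

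The stretch that makes these genes one ligand family is shown for 3 of the neuregulins. It runs from the first to the last of 6 conserved cysteine codons of the EGF-like domain, read 5′ to 3′ from the GENCODE vM21 transcript with the longest coding sequence, on GRCm38, with the cysteine codons in capitals. Nrg1 holds it in exons 2 to 3, within chr8:31837698-31849398. Nrg3 holds it in exons 2 to 3, within chr14:38668261-39012054, and Nrg4 in exons 4 to 5, within chr9:55242177-55280969. All 3 genes lie on the minus strand, and the stretch is split by an intron in each.
Nrg1: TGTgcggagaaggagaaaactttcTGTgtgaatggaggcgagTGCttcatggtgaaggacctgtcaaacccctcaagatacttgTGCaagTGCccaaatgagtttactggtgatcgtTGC
Nrg3: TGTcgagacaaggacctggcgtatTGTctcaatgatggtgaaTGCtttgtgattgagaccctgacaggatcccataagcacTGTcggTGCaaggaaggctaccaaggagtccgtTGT
Nrg4: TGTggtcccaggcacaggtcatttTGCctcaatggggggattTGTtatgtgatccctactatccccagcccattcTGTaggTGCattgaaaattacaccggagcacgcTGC
The stretches are 120, 117 and 111 bases long. Of the aligned bases, 61.4% were identical between Nrg1 and Nrg3, 53.2% between Nrg1 and Nrg4, and 63.3% between Nrg3 and Nrg4. UMIs are counted per gene, so they do not tell apart transcripts that carry different forms of the domain.

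The table held 14662 nuclei, from 548 to 2259 per mouse, and 206486779 UMIs, from 6411715 to 36668441 per mouse. WT mice gave 8841 nuclei and SOD1G93A mice 5821. Of the barcode sequences, 15 occurred in more than 1 pool. Ependymal nuclei came from 11 mice and fibroblasts from 10, and the other 8 labelled types from all 12. Motor neurons were few, with 67 nuclei and 1 to 11 per mouse.

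The labels were checked against marker genes. Neurons, astrocytes, OPCs (oligodendrocyte precursors), endothelial cells, ependymal cells, fibroblasts and motor neurons had the highest summed level of their own markers of any labelled type. The nuclei labelled microglia did not look like one cell type. Their microglial markers Cx3cr1, Csf1r and Ptprc summed to 74.6 CPM, above any other type, but the neuronal markers Grin1, Rbfox3 and Camk2a to 485 CPM, at a median of 46927 UMIs per nucleus against 12864.5 in neurons. They are named below by their label only. The oligodendrocyte genes Mog and Mag, of which Mag is also a Schwann cell gene, summed to 1020.4 CPM in oligodendrocytes, 451 in the microglia label, 325 in the group labelled Schwann and meningeal cells, 313 in OPCs and 73.7 in astrocytes. These markers were chosen from a longer list after seeing the data. Over that list the Schwann and meningeal group stood nearer to oligodendrocytes, so the sums do not measure its oligodendrocyte RNA. The Schwann genes Prx and Pmp22 were highest in the Schwann and meningeal group, at 106 CPM, but that is below its 325 CPM of Mog and Mag and its 449.7 CPM of neuronal markers, so this label too is used as deposited and not as a pure type. Every type outside the neurons held neuronal marker UMIs, from 7.22% of the level in neurons in endothelial nuclei to 61.9% in the microglia label.

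The 8 genes differ in size, which matters because UMIs of nuclear RNA include introns. On GRCm38, Nrg1 covers 1069 kb (chr8:31814551-32884029), Nrg3 1104 kb (chr14:38368952-39473088) and Erbb4 1076 kb (chr1:68032186-69108059). Nrg2 covers 180 kb (chr18:36017652-36197380), Egfr 166 kb (chr11:16752203-16918158) and Nrg4 107 kb (chr9:55220222-55326844). Erbb2 covers 25.2 kb (chr11:98412470-98437716) and Erbb3 22.1 kb (chr10:128567523-128589652). Nrg3 overlaps the antisense genes Nrg3os and Gm20642, which held 72645 and 49659 UMIs of their own, against 1242785 for Nrg3. How reads of overlapping genes on opposite strands were shared out was not tested.

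Together the 8 genes took 2143049 UMIs, 1.04% of all. Nrg3 gave 1242785 of them, Nrg1 551848, Erbb4 283908 and Nrg2 55444. The others were sparse, with 4179 UMIs for Egfr, 3694 for Nrg4, 1114 for Erbb3 and 77 for Erbb2. Since counts can grow with gene length, levels of different genes are compared below per 100 kb of gene unless stated, and all other values are the level of 1 gene.

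**Figure D1:**
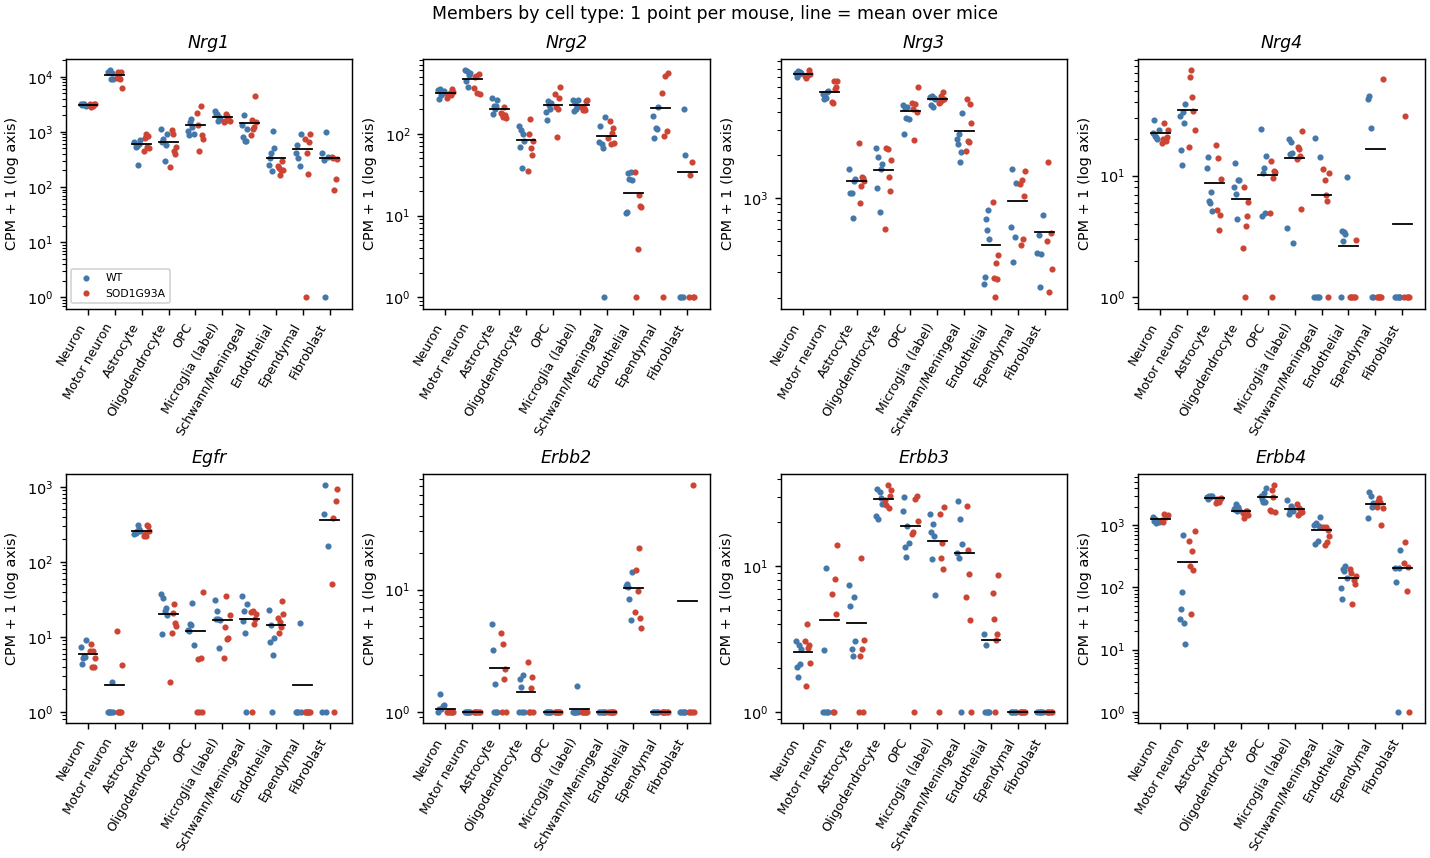
Level of each of the 8 genes in the 10 labelled cell types, as CPM + 1 on a log axis, with 1 point per mouse (blue WT, red SOD1G93A) and a line at the mean over mice. Motor neurons stand above all other types for Nrg1, with the lowest mouse at 6243 CPM. For Egfr every astrocyte point lies at or above 217 CPM, and fibroblast points run from 0 to 1057 CPM.

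Nrg1, the neuregulin of axons and of the cholinergic synapses on motor neurons, was highest in motor neurons. Its lowest, median and highest levels over 12 mice there were 6243, 10706 and 12994 CPM. The mean was 10522 ± 2024 CPM (SD, n = 12), and over all motor neuron nuclei 1.07% of UMIs were Nrg1. Other neurons followed with 3085 ± 115 CPM, and the difference of 1.74 ± 0.31 on the log2 scale (mean and SD of 12 mice) was seen in 12 of 12 mice (exact two-sided sign-flip test, p = 0.000488, the smallest that 12 pairs can give, adjusted p = 0.00249). Every one of the 67 motor neuron nuclei held Nrg1, from 109 to 2323 UMIs, and the middle 50% of nuclei lay between 8472 and 13147 CPM.

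The types below neurons were ordered less clearly for Nrg1. Neurons exceeded the microglia label by 0.75 ± 0.22 on the log2 scale (adjusted p = 0.00249 by the exact sign-flip test over 56 pairs of neighbours in the order of levels), OPCs exceeded oligodendrocytes by 0.97 ± 1.25 (adjusted p = 0.0410) and astrocytes exceeded endothelial nuclei by 0.97 ± 0.82 (adjusted p = 0.0103). The step from OPCs was lost in 9 of the 12 repeats without 1 mouse, and that from astrocytes when each nucleus had equal weight (adjusted p = 0.509). The steps from the microglia label at 1851 ± 285 CPM to the Schwann and meningeal group at 1456 ± 1042 and from that group to OPCs at 1320 ± 702 did not pass, and neither did that from oligodendrocytes at 661 ± 302 to astrocytes at 609 ± 179. The first of these passed when each nucleus had equal weight (adjusted p = 0.00195) and when the SOD1G93A male of pool B, at 4519 CPM in the Schwann and meningeal group, was left out (adjusted p = 0.00841). Because neighbours were set by the order in the same mice, these tests say which steps exceed the spread, not that the order was foreseen.

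Nrg3, which in the brain is a ligand of ErbB4 on synapses, was highest in neurons at 7338 ± 267 CPM. Motor neurons were lower at 5464 ± 670 CPM, by 0.43 ± 0.16 on the log2 scale in 12 of 12 mice (adjusted p = 0.00249, exact sign-flip test). Nrg3 was present in 8794 of 8800 neuron nuclei. Of its 7 steps between neighbours, 6 passed the test (OPCs against the Schwann and meningeal group in 5 of the 12 repeats without 1 mouse), and the one that did not was oligodendrocytes at 1571 ± 561 CPM against astrocytes at 1311 ± 415 CPM. Thus in CPM motor neurons differed from other neurons in opposite directions for the 2 most abundant neuregulins, with Nrg1 above and Nrg3 below. Per UMI of the neuronal markers, motor neuron Nrg3 was above the neurons of the same mouse in 10 of 12 mice. Motor neurons held 516 CPM of those markers against 784 in neurons, which raises this ratio for any gene. It is therefore no sign of higher Nrg3 in motor neurons. In CPM, motor neuron Nrg3 did not differ beyond the spread from dorsal inhibitory neurons at 6064 ± 206 CPM (adjusted p = 0.135, exact sign-flip test over 72 pairs).

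Nrg2, a less studied neuregulin, was also highest in motor neurons, at 466 ± 104 CPM against 313 ± 28.7 CPM in neurons (adjusted p = 0.00456, exact sign-flip test, higher in 11 of 12 mice). Motor neurons did not differ beyond the spread from ventral inhibitory neurons at 401 ± 38.3 CPM (adjusted p = 0.383, exact sign-flip test over 72 pairs). Ventral excitatory neurons had 387 ± 42.1 CPM and dorsal excitatory neurons 258 ± 20.7 CPM. Over the summed UMIs, the astrocyte level of Nrg2 was 63.8% of its neuron level, against 18.6% for Nrg1 and 16.6% for Nrg3. Astrocytes at 199 ± 38.3 CPM exceeded oligodendrocytes at 83.4 ± 34.9 CPM in 12 of 12 mice (adjusted p = 0.00249). Ependymal nuclei reached 207 ± 180 CPM over 11 mice, from 0 to 555. Nrg4, a small ligand known from adipose tissue, was low throughout. It reached 33.7 ± 18.8 CPM in motor neurons and 21.2 ± 3.11 CPM in neurons, which did not differ beyond the spread (adjusted p = 0.119), and neurons exceeded the microglia label (adjusted p = 0.00249).

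In oligodendrocytes and astrocytes, the 10% of nuclei with the most Nrg1 UMIs held 85.2% and 79.4% of them, against 47.2% in neurons. For Nrg3 these shares were 84.9% and 78.7%, against 31.1%. The nuclei differ in depth. Nrg1 and Nrg3 outside neurons were also read against neuronal marker RNA. Per UMI of Grin1, Rbfox3 and Camk2a, neurons held 3.89 ± 0.28 UMIs of Nrg1 (n = 12 mice), and the values were 3.76 ± 1.17 in astrocytes, 3.49 ± 0.95 in oligodendrocytes, 3.63 ± 0.71 in the microglia label and 3.71 ± 2.05 in OPCs (n = 11). These were above the neurons of the same mouse in 6, 4 and 4 of 12 mice and in 2 of 11. Nrg3 gave 9.26 ± 0.63 in neurons, 7.84 ± 1.24 in astrocytes and 8.46 ± 1.45 in oligodendrocytes, above neurons in 2 and 4 of 12 mice. In OPCs it was 10.8 ± 2.11, above the neurons of the same mouse in 9 of 11 mice. In motor neurons the Nrg1 ratio was 20.0 ± 4.25, above that of the same mouse's neurons in 12 of 12 mice. Their Nrg3 ratio was 10.5 ± 2.12, above that of the same mouse's neurons in 10 of 12 mice. Motor neurons held these markers at 65.9% of the neuron level, so both ratios exceed neurons by more than the CPM values do. Endothelial nuclei had a Nrg1 ratio of 5.82 ± 2.49, above their neurons in 9 of 11 mice. The highest, 10.1, was that of the WT male of pool B, where 374 of 445 Nrg1 UMIs lay in 1 nucleus.

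Nrg2 in astrocytes, OPCs and motor neurons and Erbb4 in astrocytes, oligodendrocytes, OPCs and the microglia label stood above the neuronal ratio in every mouse. Nrg2 had 0.395 ± 0.034 UMIs per neuronal marker UMI in neurons and 1.27 ± 0.409 in astrocytes, above the neurons of the same mouse in 12 of 12 mice. In OPCs it was 0.604 ± 0.149 (11 of 11 mice above) and in motor neurons 0.879 ± 0.191 (12 of 12), where the lower marker level raises the ratio. It was nearer to neurons in oligodendrocytes, at 0.442 ± 0.077 and above neurons in 8 of 12 mice, and in the microglia label, at 0.432 ± 0.063. Erbb4 had 1.59 ± 0.17 in neurons, 17.4 ± 5.21 in astrocytes, 10.3 ± 3.7 in oligodendrocytes, 7.68 ± 3.97 in OPCs and 3.6 ± 0.81 in the microglia label, above neurons in every mouse of each. What part of the Nrg1 and Nrg3 UMIs of glial nuclei came from neuronal RNA was not tested.

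**Figure D2:**
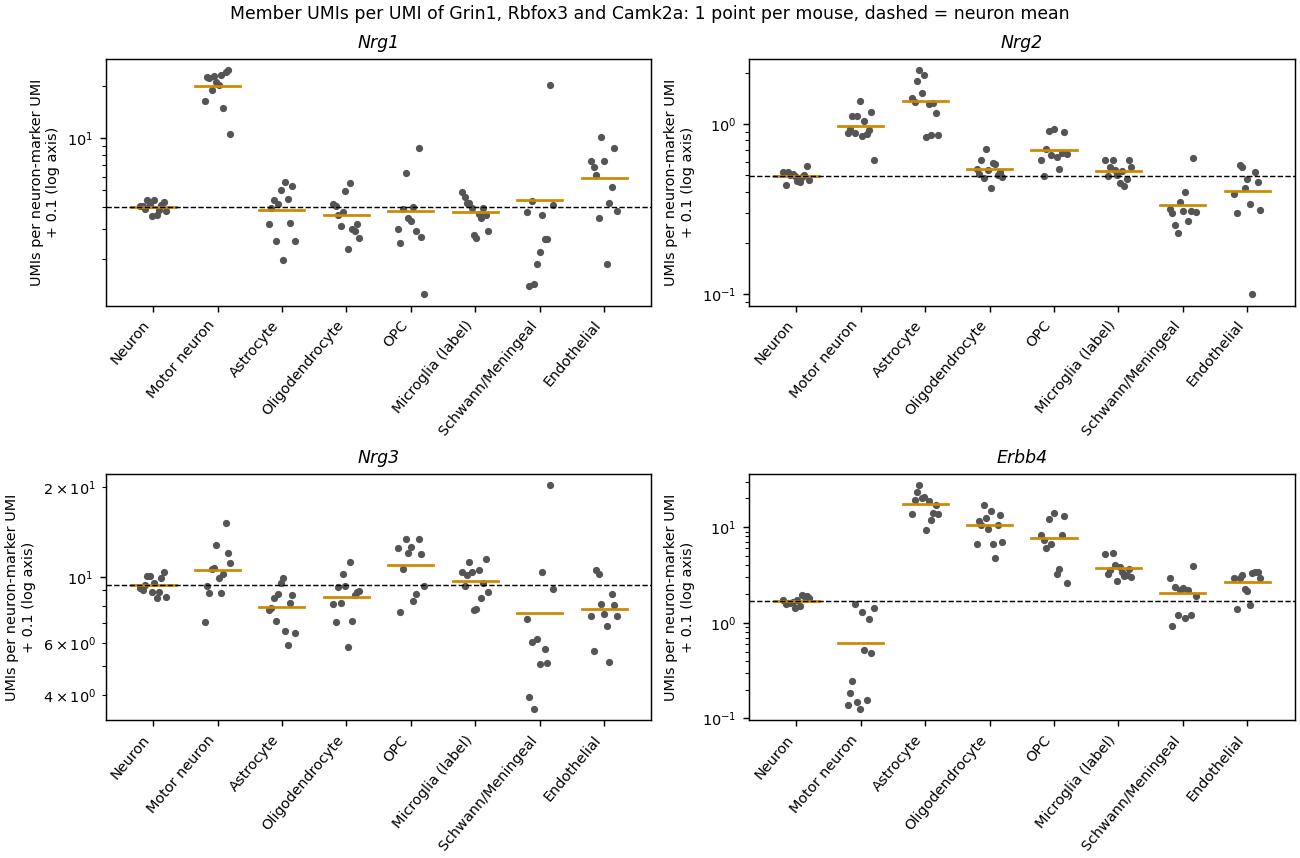
UMIs of Nrg1, Nrg2, Nrg3 and Erbb4 per UMI of the neuronal markers Grin1, Rbfox3 and Camk2a, plus 0.1 on a log axis, with 1 point per mouse, an orange line at the mean and a dashed line at the neuron mean. Only mice with at least 10 marker UMIs in a type are drawn, and ependymal nuclei and fibroblasts are left out. Astrocyte, oligodendrocyte and OPC points lie on both sides of the neuron line for Nrg1 and Nrg3 and above it for Erbb4.

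Erbb4, the neuregulin receptor of neurons and glia, was seen in all 10 types. It was highest in OPCs at 2811 ± 911 CPM and astrocytes at 2712 ± 237 CPM, which did not differ (0.01 ± 0.47 on the log2 scale, adjusted p = 1, exact sign-flip test), although OPCs were higher when each nucleus had equal weight (adjusted p = 0.0392). OPCs exceeded the microglia label at 1830 ± 308 CPM (adjusted p = 0.0115), and oligodendrocytes at 1713 ± 249 CPM exceeded neurons at 1266 ± 136 CPM in 10 of 12 mice (adjusted p = 0.00781). Ependymal nuclei held 2230 CPM over all mice. Endothelial nuclei at 143 ± 53.5 CPM and motor neurons at 258 ± 287 CPM were lowest among the 8 types with all mice.

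Motor neurons, highest for Nrg1, therefore had little Erbb4. The median motor neuron nucleus had 30.7 CPM of Erbb4, against 227 in neurons and 2708 in astrocytes, and 52 of 67 motor neuron nuclei held at least 1 UMI. The 7 nuclei with the most Erbb4 UMIs held 76.9% of its motor neuron UMIs. Ranked by CPM instead, the top 7 nuclei came from 4 mice and lay at 1023 to 1682 CPM. Nrg1 in those 7 nuclei lay between 4723 and 7470 CPM, below the lower quartile of 8472 CPM over all motor neuron nuclei. Of the 7, 5 were from SOD1G93A mice, whose median motor neuron nucleus had 7949 CPM of Nrg1, against 11321 in WT.

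Egfr, which binds EGF and TGF-alpha, was mainly an astrocyte transcript, and the few fibroblast nuclei gave a high but uncertain level. Astrocytes had 217, 255 and 312 CPM as lowest, median and highest mouse, and a mean of 259 ± 32.1 CPM. The next type with all mice, oligodendrocytes, had 18.9 ± 9.98 CPM, lower by 3.30 ± 0.51 on the log2 scale in 12 of 12 mice (adjusted p = 0.00249, exact sign-flip test). Fibroblasts reached 366 ± 400 CPM, from 0 to 1057, with Egfr UMIs in 7 of 10 mice and in 14 of 46 nuclei. The highest value came from the WT male of pool A, which had 1 fibroblast nucleus. Astrocytes gave 64.3% of all Egfr UMIs (95% exact interval 62.8% to 65.7%, covering counting error only). Motor neurons gave 4 UMIs, or 1.01 CPM (95% exact interval 0.277 to 2.60).

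Erbb3, the receptor that mediates neuregulin signals in Schwann cells and oligodendrocytes, was highest in oligodendrocytes at 27.8 ± 4.66 CPM, with 20.2, 28.0 and 35.1 CPM as lowest, median and highest mouse. OPCs followed at 18 ± 8.62 CPM (adjusted p = 0.0164, exact sign-flip test) and the step from OPCs to the microglia label at 13.8 ± 7.31 CPM did not pass (adjusted p = 0.466), nor did that from the microglia label to the Schwann and meningeal group at 11.3 ± 9.0 CPM (adjusted p = 0.583). That group exceeded astrocytes at 3.06 ± 3.03 CPM (adjusted p = 0.0261). This step and that from oligodendrocytes to OPCs were both at an adjusted p of 0.0526 when each nucleus had equal weight, and the first was lost with log2(CPM + 1) too (adjusted p = 0.0729). The microglia label and the Schwann and meningeal group also held 451 and 325 CPM of Mog and Mag, against 73.7 in astrocytes. These genes were chosen from a longer list after seeing the data. Over that list the Schwann and meningeal group stood above the microglia label and nearer to oligodendrocytes. The sums of Mog and Mag therefore do not measure the oligodendrocyte RNA of that group. The part of oligodendrocyte RNA in the Erbb3 of the microglia label and of that group was not tested. Erbb3 was not seen in ependymal nuclei or fibroblasts, where 0 UMIs allow up to 11.9 and 14.0 CPM.

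Erbb2, the partner receptor without a ligand, gave 77 UMIs in all, of which 43 were in endothelial nuclei (55.8%, 95% exact interval 44.1% to 67.2%), although these were 3.42% of nuclei. Endothelial nuclei of 12 of 12 mice held Erbb2, at 9.32 ± 4.83 CPM, above the astrocytes of the same mouse at 1.27 ± 1.5 CPM in 12 of 12 mice (adjusted p = 0.00249, exact sign-flip test). Motor neurons, OPCs, the Schwann and meningeal group and ependymal nuclei held 0 UMIs, which allow up to 0.761, 0.808, 0.951 and 11.9 CPM. At this depth the absence of Erbb2 from Erbb3-bearing nuclei could not be shown, and Erbb2 entered no test of genotype.

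Per 100 kb of gene, the receptors had different shares in each type. In astrocytes, Erbb4 made up 58.7% of the summed receptor level per length and Egfr 37.4%. In oligodendrocytes Erbb4 made up 54.0% and Erbb3 41.4%, in OPCs Erbb4 73.3% and Erbb3 24.6%, and in neurons Erbb4 92.2%. Endothelial nuclei were the only type where Erbb2 led, with 54.2%, on UMIs in 41 of 501 nuclei. That lead came with the division by length. In CPM, Erbb4 was above Erbb2 there, at 143 against 9.32. Whether counts grow in proportion to gene length was not tested. Among the ligands per length, Nrg3 led in neurons with 58.1% and Nrg1 in motor neurons with 56.5%, and in astrocytes Nrg2 and Nrg3 took 39.3% and 39.4%. These shares are a description over the summed UMIs of all mice, without a test.

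The genes whose level ran most like each member over the 10 types were found among 11528 genes with at least 1000 UMIs. They were Tmem63c, Kcnh1 and Flt3 for Nrg1 (Pearson r of 0.995, 0.991 and 0.991), 4933406I18Rik, Fgf12 and Lrfn5 for Nrg3 (0.995, 0.994 and 0.993), Kcnma1, Gm26954 and Tmem29 for Nrg2 (0.966, 0.960 and 0.954), and Ttc13, Traf3 and Slit2 for Nrg4 (0.967, 0.965 and 0.960). For the receptors they were Lonrf3, Nat8f3 and Arhgef18 for Egfr (0.974, 0.945 and 0.941), Apcdd1, Cdh5 and Fn1 for Erbb2 (0.992, 0.989 and 0.987), Bfsp2, Sox10 and Rtkn2 for Erbb3 (0.989, 0.977 and 0.967), and C130071C03Rik, Kirrel3 and Tox for Erbb4 (0.947, 0.943 and 0.943). Cdh5 encodes the cadherin of endothelial junctions and Sox10 a transcription factor of the oligodendrocyte and Schwann lineages. The 10 points share libraries and differ in depth, and r is a description only.

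**Figure D3:**
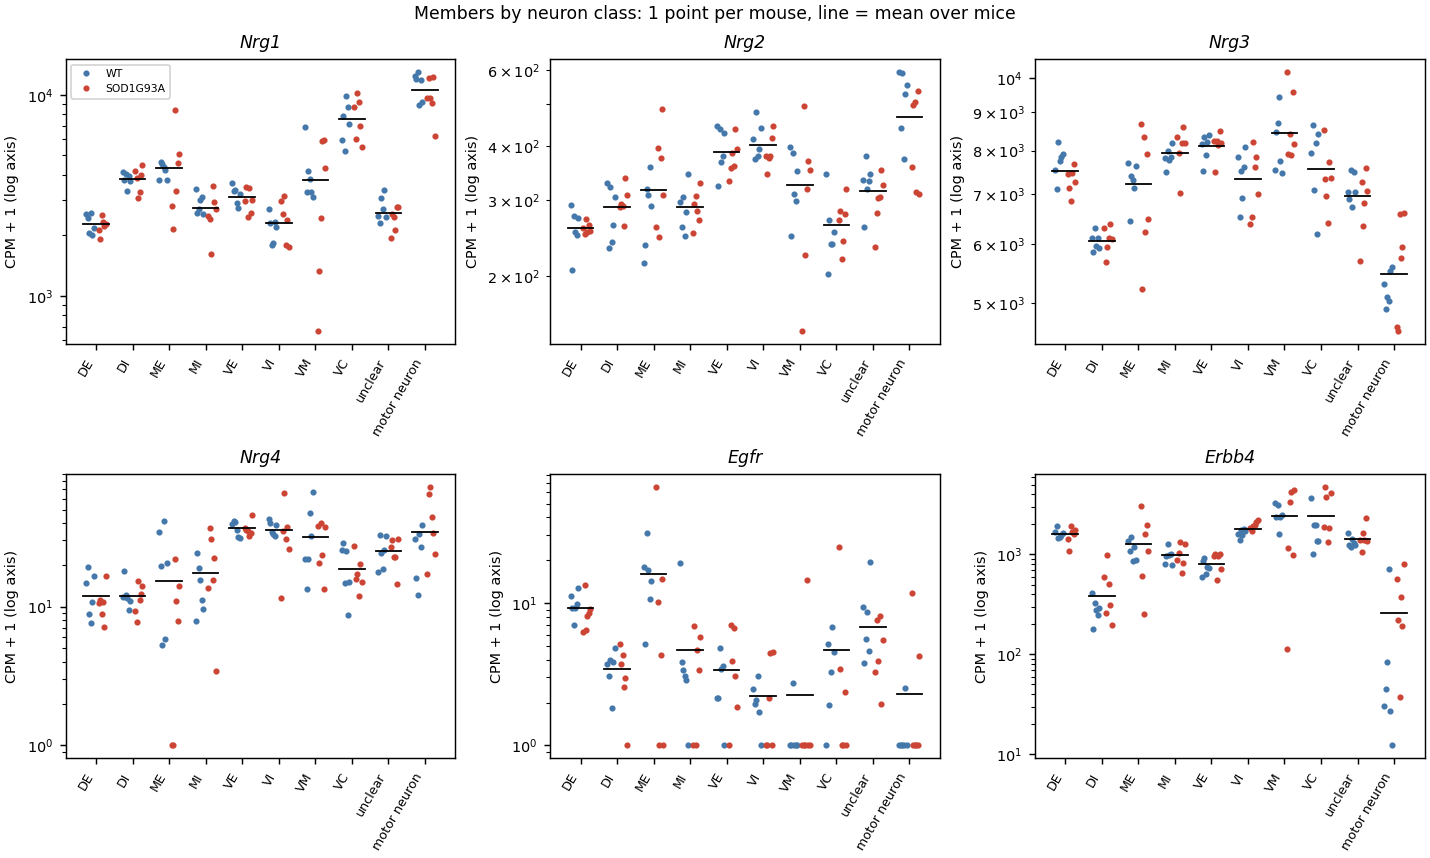
Level of 6 members in the 9 neuron sub-types and in motor neurons, as CPM + 1 on a log axis, with 1 point per mouse (blue WT, red SOD1G93A) and a line at the mean. The first letter of a sub-type gives dorsal, mid or ventral and the second excitatory, inhibitory, mixed or cholinergic. Erbb4 is low in DI and high in VI, VC and VM.

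Within neurons, Nrg1 was highest in motor neurons and in the sub-type labelled ventral cholinergic. That sub-type held 535 CPM of the motor neuron markers Slit3, Prph and Chat, from 112 to 1107 per mouse, against 1305 in motor neurons. It also held 101 CPM of the excitatory marker Slc17a6, against 107 in ventral excitatory neurons and 10.7 in motor neurons. Its label is therefore used as deposited. Ventral cholinergic (VC) neurons had 5280, 7473 and 10169 CPM as lowest, median and highest mouse, next to motor neurons, and the 0.47 ± 0.48 log2 difference from motor neurons did not pass (adjusted p = 0.0984 over 72 pairs, exact sign-flip test) but did when each nucleus had equal weight (adjusted p = 0.0234). VC neurons exceeded the next class, mid excitatory (ME) neurons at 4305 ± 1551 CPM, in 12 of 12 mice (adjusted p = 0.0352). Only 2 other steps of the 72 passed, the fall of Nrg3 from unclear neurons at 6958 ± 542 CPM to dorsal inhibitory (DI) neurons at 6064 ± 206 CPM and the fall of Erbb4 from ventral excitatory (VE) neurons at 807 ± 165 CPM to DI neurons at 382 ± 228 CPM (adjusted p = 0.0469 for both). Of the 12 repeats that left out 1 mouse, the Nrg1 step was lost in 7, the Nrg3 step in 10 and the Erbb4 step in 11, where 11 pairs give an adjusted p no lower than 0.0703 to a test that stands alone. The Nrg3 step was also lost when each nucleus had equal weight (adjusted p = 0.158).

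Inhibitory and excitatory neurons differed in Erbb4 in opposite ways by position. In the dorsal horn, DI neurons had 180, 301 and 993 CPM as lowest, median and highest mouse and dorsal excitatory (DE) neurons 1095, 1631 and 1938 CPM, without overlap between the 2 ranges. DI was lower by 2.20 ± 0.69 on the log2 scale in 12 of 12 mice (exact sign-flip test, p = 0.000488, adjusted p = 0.00195 over 24 tests). In the ventral horn the direction was turned, with ventral inhibitory (VI) neurons at 1394, 1775 and 2192 CPM and VE neurons at 552, 803 and 1007 CPM, higher in VI by 1.16 ± 0.33 in 12 of 12 mice (adjusted p = 0.00195). Mid inhibitory (MI) neurons at 986 ± 216 CPM and ME neurons at 1284 ± 715 CPM did not differ beyond the spread (adjusted p = 0.788).

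Nrg1 ran the other way in both horns. DI neurons at 3813 ± 414 CPM exceeded DE neurons at 2270 ± 223 CPM by 0.74 ± 0.26 on the log2 scale in 12 of 12 mice (adjusted p = 0.00195, exact sign-flip test), whereas MI was lower than ME by 0.59 ± 0.66 and VI lower than VE by 0.44 ± 0.38 (adjusted p = 0.0104 for both). Nrg3 was lower in inhibitory neurons dorsally, by 0.31 ± 0.07, and ventrally, by 0.15 ± 0.10 (adjusted p = 0.00195 for both). Egfr, at 8.26 ± 2.29 CPM in DE and 2.42 ± 1.20 in DI neurons, was lower in DI by 0.55 ± 0.23 on the log2(CPM + 10) scale, which understates low levels (adjusted p = 0.00195). Of the 24 tests 10 passed: 3 of Nrg1, 1 of Nrg2, 2 each of Nrg3, Egfr and Erbb4, and none of the 9 of Nrg4, Erbb2 and Erbb3. Egfr in MI against ME, at 3.69 ± 4.94 and 15.1 ± 17.8 CPM, was lost in 8 of the 12 repeats without 1 mouse. The summed markers of inhibitory neurons (Gad1, Gad2, Slc32a1 and Slc6a5) were 358 CPM in DI against 40.1 in DE and 256 in VI against 82.2 in VE.

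Within the sub-types, Erbb4 was most concentrated in DI neurons. The share of Erbb4 UMIs held by the top 10% of nuclei ran from 45.5% in VI to 74.0% in DI. The median DI nucleus had 68.4 CPM while the upper quartile was 234. In VE the median nucleus had 144 CPM and the upper quartile 1104, and in VI the median was 1175 CPM and the upper quartile 2677. In astrocytes, by contrast, the top 10% held 28.6% and the middle 50% of nuclei lay between 1725 and 3735 CPM. Nrg3 in neurons was even, with the middle 50% of nuclei between 5533 and 8671 CPM. The nuclei differ in depth and these spreads include counting error.

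The comparison of SOD1G93A with WT mice asked whether the ligands or receptors of this pathway change at 90 days. No member passed an FDR under 0.1 with limma (voom with a term for pool) in any of 10 cell types or 9 neuron sub-types, over 94 tests of 7 members, and edgeR and DESeq2 also called 0. At an unadjusted p under 0.05 there were 10, of which 9 were in the 48 tests of cell types (8 lower and 1 higher in SOD1G93A). That is 18.8% of the member tests in the cell types, against 7.18% of the tests of all genes, and 2.17% against 4.54% in the sub-types. The median log2 fold change was -0.07 over the 48 tests, against 0.00 over the 68984 tests of all genes, and -0.03 over the 46 tests of sub-types, against 0.01.

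The share of all genes called in the same fits was 2.29% in astrocytes, 3.07% in motor neurons, 0.0759% in the microglia label, 0.0475% in oligodendrocytes, 0.0411% in OPCs, 0.036% in the Schwann and meningeal group, 0.0255% in neurons, 0.0131% in endothelial nuclei and 0% in ependymal nuclei and fibroblasts. Among sub-types it was 0.06% in MI, 0.0329% in DE, 0.0296% in VC, 0.027% in unclear neurons, 0.0243% in VM (ventral mixed), 0.0231% in VI, 0.019% in DI, 0.00871% in VE and 0% in ME. With so few genes called outside astrocytes and motor neurons, 0 called of 2 to 7 members per fit is near the background.

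**Figure D4:**
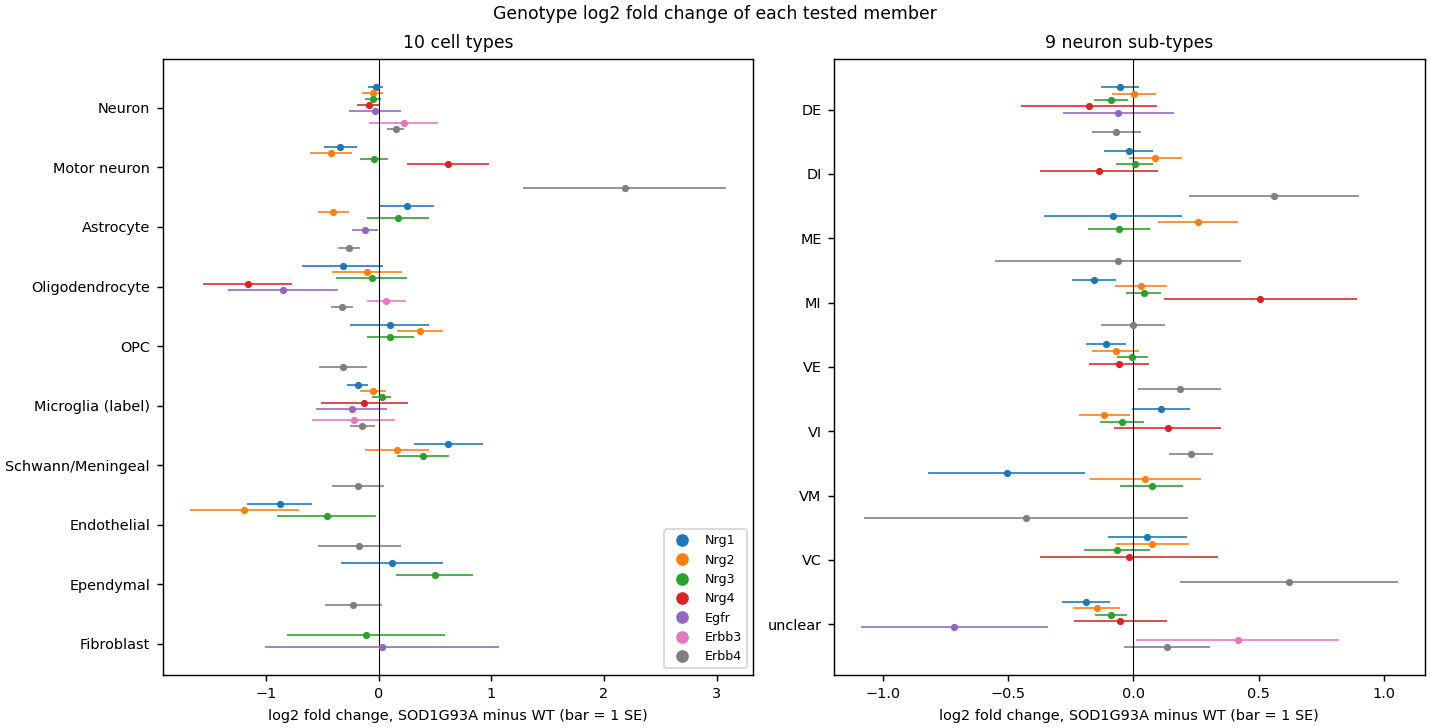
Log2 fold change of SOD1G93A minus WT for each tested member in 10 cell types (left) and 9 neuron sub-types (right), with bars of 1 SE from limma. In neurons Nrg1, Nrg2, Nrg3 and Nrg4 lie within 0.09 of 0, and Erbb4 in motor neurons is the point farthest to the right, at 2.18 with the widest bar among motor neuron values.

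In neurons, the type with the most UMIs, the estimates were small. Nrg1 changed by -0.03 ± 0.07 on the log2 scale (limma estimate and SE), Nrg2 by -0.05 ± 0.09, Nrg3 by -0.05 ± 0.07 and Nrg4 by -0.09 ± 0.10. Erbb4 differed by 0.15 ± 0.08, with WT mice at 1108, 1162 and 1343 CPM (lowest, median, highest) and SOD1G93A mice at 1141, 1360 and 1499 CPM. None passed, with limma adjusted p at 1.00. In VI neurons, Erbb4 was higher in SOD1G93A than in WT in 6 of 6 pairs of mice of the same sex and pool (0.23 ± 0.09, limma adjusted p = 1.00). WT mice there had 1394, 1652 and 1780 CPM and SOD1G93A mice 1711, 1952 and 2192 CPM.

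In motor neurons, no member passed, and Nrg1, Nrg2 and Erbb4 did so in some alternatives. Nrg1 had 8950, 11878 and 12994 CPM in WT and 6243, 9613 and 12247 CPM in SOD1G93A mice (lowest, median, highest). Its log2 fold change was -0.34 ± 0.15 (limma adjusted p = 0.255), lower in 3 of 6 pairs of the same sex and pool. Over single nuclei the medians were 11321 CPM in WT and 7949 CPM in SOD1G93A. Nrg1 passed when genes with low counts were kept (-0.44 ± 0.10, limma adjusted p = 0.00390), and Nrg1 and Nrg2 when the pool B WT female was left out. Of all genes, 457 of 19784 and 243 of 5289 were called in these fits, against 157 of 5118 as reported. Nrg2 gave -0.42 ± 0.19 (limma adjusted p = 0.268), and Nrg3 -0.04 ± 0.12. The groups overlapped in each. Only 23 motor neuron nuclei came from SOD1G93A mice, against 44 from WT, and in summed UMIs fewer motor neurons of a kind and less RNA per neuron cannot be told apart.

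Erbb4 in motor neurons had 11.3, 36.7 and 709.9 CPM in WT and 36.2, 298 and 800 CPM in SOD1G93A mice. The log2 fold change was 2.18 ± 0.90 (limma adjusted p = 0.312). Of the WT mice, 5 lay at or below 83.7 CPM, and the male WT mouse of pool A at 709.9 CPM lay above all but 1 SOD1G93A mouse. Over single nuclei the medians were 29.4 CPM in WT and 36.2 CPM in SOD1G93A. Of the 7 nuclei with the highest Erbb4 CPM, 5 were from SOD1G93A mice and 2 from WT. The difference thus rested on few nuclei. With that WT mouse left out the log2 fold change was 3.1 ± 0.59 (limma adjusted p = 0.0411), and with all mice it passed when limma's eBayes step was not robust (adjusted p = 0.0769). Without that mouse 250 of 5259 genes were called in motor neurons, against 157 of 5118 as reported.

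**Figure D5:**
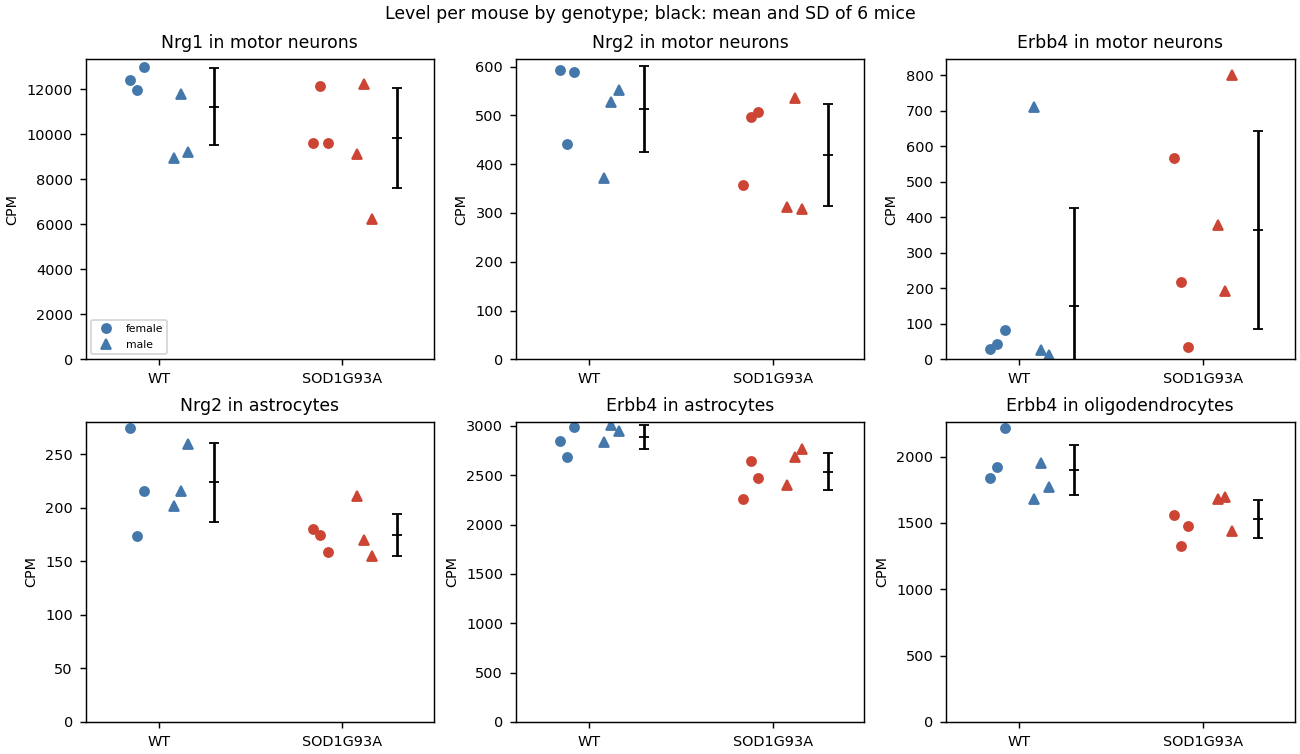
Level per mouse by genotype (CPM from 0) for 6 member and cell type combinations, circles for females and triangles for males, with the mean and SD of 6 mice in black and the lower arm of the SD for WT Erbb4 in motor neurons cut at 0. The groups overlap in every panel, and Erbb4 in motor neurons has 1 WT mouse at 709.9 CPM beside 5 at or below 83.7 CPM.

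In glia, no member passed either. Astrocyte Erbb4 had 2685, 2895 and 3006 CPM in WT and 2260, 2558 and 2764 CPM in SOD1G93A mice, lower in 6 of 6 pairs (-0.26 ± 0.10, limma adjusted p = 0.207). Astrocyte Nrg2 had 174, 216 and 275 CPM in WT and 155, 172 and 211 CPM in SOD1G93A mice, lower in 4 of 6 pairs (-0.40 ± 0.14, limma adjusted p = 0.168, the lowest of any member). When the pool B WT female was left out, both passed, at -0.33 ± 0.08 for Erbb4 (adjusted p = 0.0301) and -0.50 ± 0.13 for Nrg2 (adjusted p = 0.0458). In that fit 358 of 9485 genes were called in astrocytes, against 214 of 9347 as reported. Astrocyte Egfr showed -0.12 ± 0.11 (adjusted p = 0.693).

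Oligodendrocyte Erbb4 had 1680, 1881 and 2219 CPM in WT and 1328, 1516 and 1699 CPM in SOD1G93A mice, lower in 6 of 6 pairs (-0.32 ± 0.10, limma adjusted p = 0.887). Nrg4 there was lower in 6 of 6 pairs too, with 3.37, 7.65 and 11.7 CPM in WT and 0, 3.28 and 7.15 CPM in SOD1G93A mice, on 83 and 27 UMIs (-1.16 ± 0.40, adjusted p = 0.906). Erbb3, the receptor of this lineage, showed 0.07 ± 0.17 (adjusted p = 1.00). Erbb4 in the Schwann and meningeal group was lower in 6 of 6 pairs as well, with an estimate within its SE (-0.19 ± 0.23, limma adjusted p = 0.999). How often other genes ran one way in 6 of 6 pairs is not given here. The pair counts of members are thus a description only. Endothelial Nrg1 had 195, 373 and 1040.5 CPM in WT and 162, 213 and 295 CPM in SOD1G93A mice (-0.88 ± 0.29, adjusted p = 0.980). Of the settings tried, it passed only when the pool A WT male was left out (-1.13 ± 0.19, limma adjusted p = 0.0179). In that fit 4 of 8051 genes were called, against 1 of 7637 as reported. In the WT male of pool B, at 1040.5 CPM, 374 of the 445 Nrg1 UMIs lay in 1 endothelial nucleus.

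For sex, and for the difference of the genotype effect between the sexes, no member passed with limma in any cell type or sub-type. Of all tests over the 10 cell types, 0.159% were called for sex and 0.0058% for that difference, and edgeR and DESeq2 called 0 members in these types for either. In the sub-types, DESeq2 called 1, Nrg1 in VM neurons, for that difference (2.33 ± 0.59, DESeq2 adjusted p = 0.0637), where it called 5 of 4123 genes. The SOD1G93A females had 1, 6 and 7 VM nuclei, and the WT female of pool A, which stood apart at 6919 CPM, had 7. At an unadjusted p under 0.05 in limma, 2 of 48 member tests (4.17%) in the cell types were reached for each, against 5.56% of all tests for sex and 3.11% for that difference. Both for sex were Egfr, in opposite directions, with -0.30 ± 0.11 for females minus males in astrocytes (limma adjusted p = 0.750) and 0.76 ± 0.32 in the microglia label (limma adjusted p = 0.755). In the sub-types 0.0928% of all tests were called for sex and 0.0782% for the difference of the genotype effect. At an unadjusted p under 0.05 in limma, 10.9% of the 46 member tests there were reached for sex and 8.70% for that difference, against 4.73% and 4.08% of all tests.

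The rest of the pathway was read from a list of 61 further genes, of which 57 could be tested in at least 1 cell type. It held 7 EGF family ligands, 7 proteases such as Bace1 that shed or process neuregulins, 37 adaptors and downstream kinases and 10 negative regulators such as Errfi1. None of 371 tests over the cell types or 382 over the sub-types was called for genotype by limma, edgeR or DESeq2. At an unadjusted p under 0.05, 17 were higher and 3 lower in the cell types and 15 higher and 4 lower in the sub-types, 5.39% and 4.97% of the list's tests against 7.18% and 4.54% of all tests. Median log2 fold changes were 0.00 and 0.03. Over all 3 comparisons the list gave 1 call. Gab1, a docking protein of receptor kinases, named here after its value was seen, was called for the difference of the genotype effect between sexes in unclear neurons (-1.35 ± 0.27, limma adjusted p = 0.0574), a fit in which 0.459% of all genes were called, 47 of 51 with a negative sign. DESeq2 called it too, but edgeR and the fit without the pool term did not. The call was also lost without the WT female of pool C or the WT male of pool B or C. It was lost, too, without the SOD1G93A female or male of pool A or C.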

How the data were processed

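The authors generated 10x v3 libraries from 3 pools of hashtagged nuclei, and deposited counts, which are raw UMIs per gene and nucleus from Cell Ranger 3.1 (STAR 2.5.1b, mm10 pre-mRNA). Per the authors, mice were assigned from hashtags, and nuclei with under 200 genes, over 10% mitochondrial UMIs or ambiguous hashtags were removed. Doublets within 1 mouse are not marked. Cell type and sub-type labels are those deposited. 27 neurons had no sub-type.

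UMIs were summed per mouse. Genotype, sex and their interaction were fitted over all genes of each type with limma 3.58.1 (filterByExpr with a minimum count of 10, TMMwsp, voom, a term per pool, robust eBayes), with Benjamini-Hochberg FDR under 0.1. Alternatives used edgeR 4.0.16 and DESeq2 1.42.0. Levels were compared within mice by exact sign-flip tests on log2(CPM + 10), adjusted p under 0.05. Before use, limma, edgeR and DESeq2 were run on counts simulated from astrocytes with large changes set in. That check does not measure their power for changes as small as most seen here, or in motor neurons. Members and lists were chosen with earlier results of these data known. The named genes are the members, the 3 most alike genes of each, and pathway genes called for genotype, of which there were 0. Gab1 was named after its value was seen, and Bace1 and Errfi1 only as examples of their roles. Intervals are 95% exact (Clopper-Pearson), and 0 UMIs were taken to allow 3 counts. Intervals and floors cover counting error only. Integrated values were not used. For oligodendrocytes and Schwann cells, sums over 2 markers each were chosen after seeing the data, and the full lists are not reported here.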

Additional observations from a re-analysis of the deposited data

Results flagged for a closer look

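Of 188 groups of up to 6 mice tested on log2(CPM + 10), 7 held a mouse that stood apart from the others of its genotype by Dixon's criterion, where chance gives about 1 in 20. In WT, Nrg1 in astrocytes was at 251 CPM in the male of pool A (230 nuclei), with the others at 532 to 702, and Nrg2 in the Schwann and meningeal group was at 0 CPM in the male of pool B (13 nuclei), with the others at 65.8 to 159. Nrg1 in VM neurons was at 6919 CPM in the WT female of pool A (7 nuclei), with the others at 3118 to 4201, and Nrg4 in DI neurons was at 17.1 CPM in the WT female of pool B (210 nuclei), with the others at 8.51 to 11. In SOD1G93A, Nrg1 in ependymal cells was at 0 CPM in the female of pool B (1 nucleus), with the others at 170 to 926, and Erbb4 in ependymal cells was at 1026 CPM in the male of pool B (12 nuclei), with the others at 1913 to 2717. Nrg3 in VE neurons was at 7482 CPM in the SOD1G93A female of pool B (55 nuclei), with the others at 8135 to 8503.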

How the results depend on the processing

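The count of members called for genotype over 10 cell types was 0 as reported and under edgeR, DESeq2, TMM factors, unscaled library sizes, a minimum count of 30 and no replicate block (the fit without the pool term). It was 1 with no filter on low counts (Nrg1 in motor neurons, -0.44, FDR 0.00390), 1 with eBayes without the robust option (Erbb4 in motor neurons, 2.18, FDR 0.0769), and from 0 to 4 when 1 mouse was left out. The 4 came when the pool B WT female was left out (Erbb4 and Nrg2 in astrocytes, Nrg1 and Nrg2 in motor neurons, the last at -0.47 and -0.61 with FDR 0.0990 and 0.0937) and 3 when the pool A WT male was left out, Nrg2 in astrocytes at -0.52 among them. All genes called without that female were 358 of 9485 in astrocytes and 243 of 5289 in motor neurons. Without that male they were 171 of 9561 and 250 of 5259, against 214 of 9347 and 157 of 5118 as reported. Over the 9 sub-types the count of members was 0, and 0 to 1 with 1 mouse left out. For sex, and for the genotype by sex difference, over the cell types it was 0 throughout. Of 1854 refitted genotype values, 10 were called and 148 had the other sign, none of them among the values at an unadjusted p under 0.05. The 1 in sub-types was Nrg1 in unclear neurons without that female (-0.30, FDR 0.0904), where 12 of 11401 genes were called, against 3 of 11109 as reported. Over sub-types, the genotype by sex difference passed for Nrg1 in VM in DESeq2 and with the SOD1G93A female of pool A or C left out (1.82 and 2.90), for Erbb4 in ME without that of pool A (2.32), and for Nrg3 in unclear neurons with the pool B WT female left out (0.36). In that last fit 167 of 11401 genes were called for the difference, against 51 of 11109 as reported. Neighbouring cell types that differed numbered 24 of 56 as reported, 22 to 24 with 1 mouse left out and 0 in the 6 WT mice alone, neighbouring neuron classes 3 of 72, 0 to 3, and 0, and inhibitory against excitatory tests 10 of 24, 9 to 11, and 0. Egfr in MI against ME was the one lost, with 8 of 12 single mice left out, with log2(CPM + 1) (9 of 24) and with the mean over nuclei. With log2(CPM + 1), 23 of the 24 cell type steps were kept. With the mean over nuclei, 21 of the 24 cell type steps were kept and 3 others passed, 2 of the 3 neuron class steps were kept and 1 other passed, and 9 of the 10 inhibitory against excitatory tests were kept and 1 other passed. With 6 mice the smallest p is 0.03125, which these families cannot carry past the adjusted threshold unless many tests reach it, so the 0 says nothing of stability. No difference that passed changed its sign in any of these settings.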
